A study of Mus musculus with 27 samples.

Results

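Tbx5, Tbx4, Pitx1 and Isl1 are transcription factor genes with known roles in the forelimb or the hindlimb of the vertebrate embryo. The 4 genes were taken by name from a table of 23279 genes and were followed across all 9 groups of the series, in forelimb buds (FLBs), hindlimb buds (HLBs), limb buds grown from embryonic stem cells (ES-FLB and ES-HLB), the heart (Ca), the branchial arch (BA) and the tail bud (TB) of the mouse. RNA was measured by sequencing in 3 libraries a group, and 26 of 27 libraries were used.

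The early FLBs and early HLBs are labelled E10.0 and the other embryonic groups E10.5, and all are untreated tissue of Slc:ICR embryos, cut out with no sorting named. The figure legend of the study places the early HLBs later than the early FLBs, so that limb type and exact stage cannot be told apart in that pair. By that legend the step to E10.5 is longer in FLBs than in HLBs, so limb type and length of step cannot be told apart. ES-FLB and ES-HLB are aggregates of the line EB5 Hand2::GFP +/-, mouse embryonic stem cells in which a copy of Hand2, a gene of limb bud mesenchyme, carries GFP. Both received BMP4 and matrigel and later the BMP inhibitor LDN193189 and Wnt3. ES-FLB had retinoic acid from day 5 to day 6, ES-HLB had a retinoic acid antagonist from day 6 to day 6.5, and on day 9 the Hand2::GFP cells of pooled aggregates were sorted. Culture, sorting and strain therefore differ together between ES-derived and embryonic groups and cannot be told apart. Nothing states that each library came from a separate embryo or culture, so p-values measure the spread between these libraries, which may be technical.

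Tbx5 and Tbx4 encode related T-box factors. Tbx5 is required to start the forelimb, where it switches on Fgf10, the growth factor that sustains outgrowth, and it also has a long known role in the heart. Tbx4 serves outgrowth of the hindlimb. Pitx1, a homeodomain factor, gives the hindlimb its form and raises Tbx4 there, and it is also made in the jaw-forming branchial arch. Isl1, a LIM-homeodomain factor, acts early in the hindlimb field and is otherwise known from heart progenitors and motor and sensory neurons.

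In the GRCm38 (mm10) annotation of RefSeq, Tbx5 lies on chromosome 5 at 119796514 to 119885220 on the plus strand and Tbx4 on chromosome 11 at 85886367 to 85916097 on the plus strand. Pitx1 lies on chromosome 13 at 55825044 to 55836190 and Isl1 on the same chromosome at 116298270 to 116309688, both on the minus strand.

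Over their whole transcripts (GENCODE, GRCm38) the longest run shared by the paralogs Tbx5 and Tbx4 was 23 bases, shorter than the sequenced reads. The longest runs shared with other family members were 19 bases for Tbx5 and Tbx3, 12 for Tbx4 and Tbx2, 29 for Pitx1 and Pitx3 and 23 for Isl1 and Isl2. Pitx1 is overlapped by an antisense gene, Gm47071, over 9943 bases, and by Gm28760 over 736 bases. Neither has values in the table, and the strand setting of the counting is not given in the sources used here, so reads of the antisense gene cannot be told apart from those of Pitx1.

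Values are reads per gene brought to the same total in each library (CPM), after scaling of the libraries to each other. Depth, read from the step that 1 read makes in each library, was between 5543746 and 22142313 reads, and 3 reads, the floor below which a level was not read, corresponded to between 0.135 and 0.541 deposited CPM. Early limb buds had 19642258 reads or more and E10.5 limb buds 5908858 or fewer, so stage and depth go together and cannot be told apart. ES-FLB and ES-HLB had between 6569902 and 7879877 reads. Depth therefore also goes with culture wherever these are set against early limb buds, and cannot be told apart from it. Left out was replicate 2 of the E10.5 HLBs, in which 7 chromosomes were over 90% at 0, among them the chromosome of Tbx5. The marker genes of limb mesenchyme, which include Prrx1 and Hand2, summed to between 1206 and 1922 CPM in limb buds and ES-derived groups and to between 366 and 463 CPM in Ca and TB. In BA they summed to between 1291 and 1374 CPM, so this list does not set limb buds apart from the branchial arch. In bulk RNA, fewer cells of a type and less RNA per cell cannot be told apart.

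Tbx5 was high in every forelimb group and in the heart. It stood at 103, 97.9 and 99.8 CPM in early FLBs, at 153, 163 and 169 CPM in the E10.5 FLBs and at 70.5, 65.9 and 71.5 CPM in ES-FLB. Heart libraries held 91.4, 91.5 and 108 CPM. All forelimb and heart libraries lay above 65 CPM, and those of the early FLBs and the heart overlapped.

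In the hindlimb groups Tbx5 was low, under the floor in the E10.5 HLBs and above it in the early HLBs and ES-HLB. Early HLBs held 0.562, 0.923 and 0.679 CPM (11, 17 and 12 reads) and the 2 E10.5 HLBs 0.183 and 0.177 CPM, which is 1 read each. ES-HLB held 3.99, 2.23 and 3.05 CPM, from 32, 16 and 26 reads, so each of its libraries lay above each embryonic HLB library. Tail bud had 3, 1 and 2 reads, and BA had none in 2 libraries and 7 in the third.

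Tbx4 had the reverse order. It stood at 140.2, 138 and 139.8 CPM in early HLBs, at 169.6 and 171 CPM in the E10.5 HLBs and, in culture, at 60.2, 57.4 and 47.9 CPM in ES-HLB. Forelimb groups were lower and unequal, with 0.904, 0.729 and 0.70 CPM in early FLBs, 12.2, 11.8 and 11.7 CPM in the E10.5 FLBs and 4.05, 3.58 and 1.19 CPM in ES-FLB. No library of a forelimb group reached the lowest hindlimb library. BA (2.79, 3.81 and 3.53 CPM), heart (1.28, 1.82 and 5.11 CPM) and tail bud (3.60, 0.580 and 1.60 CPM) overlapped with ES-FLB.

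Pitx1 was the most abundant of the 4 genes in the hindlimb. Early HLBs held 253, 229.8 and 253 CPM, E10.5 HLBs 233 and 243 CPM, and ES-HLB 72.2, 64.1 and 69.5 CPM. BA, with 111, 107 and 140.2 CPM, lay between the embryonic HLBs and ES-HLB with no overlap. Forelimb groups were far lower, with 6.64, 5.31 and 11.7 CPM in early FLBs, 1.02, 0.657 and 0.861 CPM (6, 4 and 5 reads) in the E10.5 FLBs and 8.81, 6.00 and 6.93 CPM in ES-FLB. The highest early FLB library, replicate 3, also had the highest summed level of the 7 cardiomyocyte markers, 25.5 CPM against 5.95 and 7.03 CPM, and the part of this in its Pitx1 level was not tested. Heart itself had 1, 3 and 11 reads of Pitx1 and tail bud 8, 5 and 7.

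Isl1 differed between limb types in the embryo by far more than it did in culture. Early HLBs held 16.2, 27.0 and 22.7 CPM, E10.5 HLBs 16.1 and 13.8 CPM, against 1.97, 2.03 and 2.69 CPM in early FLBs and 2.38, 2.30 and 3.44 CPM in the E10.5 FLBs. In culture ES-FLB held 23.3, 25.8 and 19.6 CPM, and ES-HLB 30.1, 31.1 and 29.1 CPM. ES-FLB thus overlapped with the early HLBs and lay above all 6 embryonic FLB libraries. Isl1 was also present in BA (25, 16.9 and 20.2 CPM), tail bud (24.3, 11.6 and 19.1 CPM) and heart (8.43, 9.65 and 9.14 CPM).

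**Figure D1:**
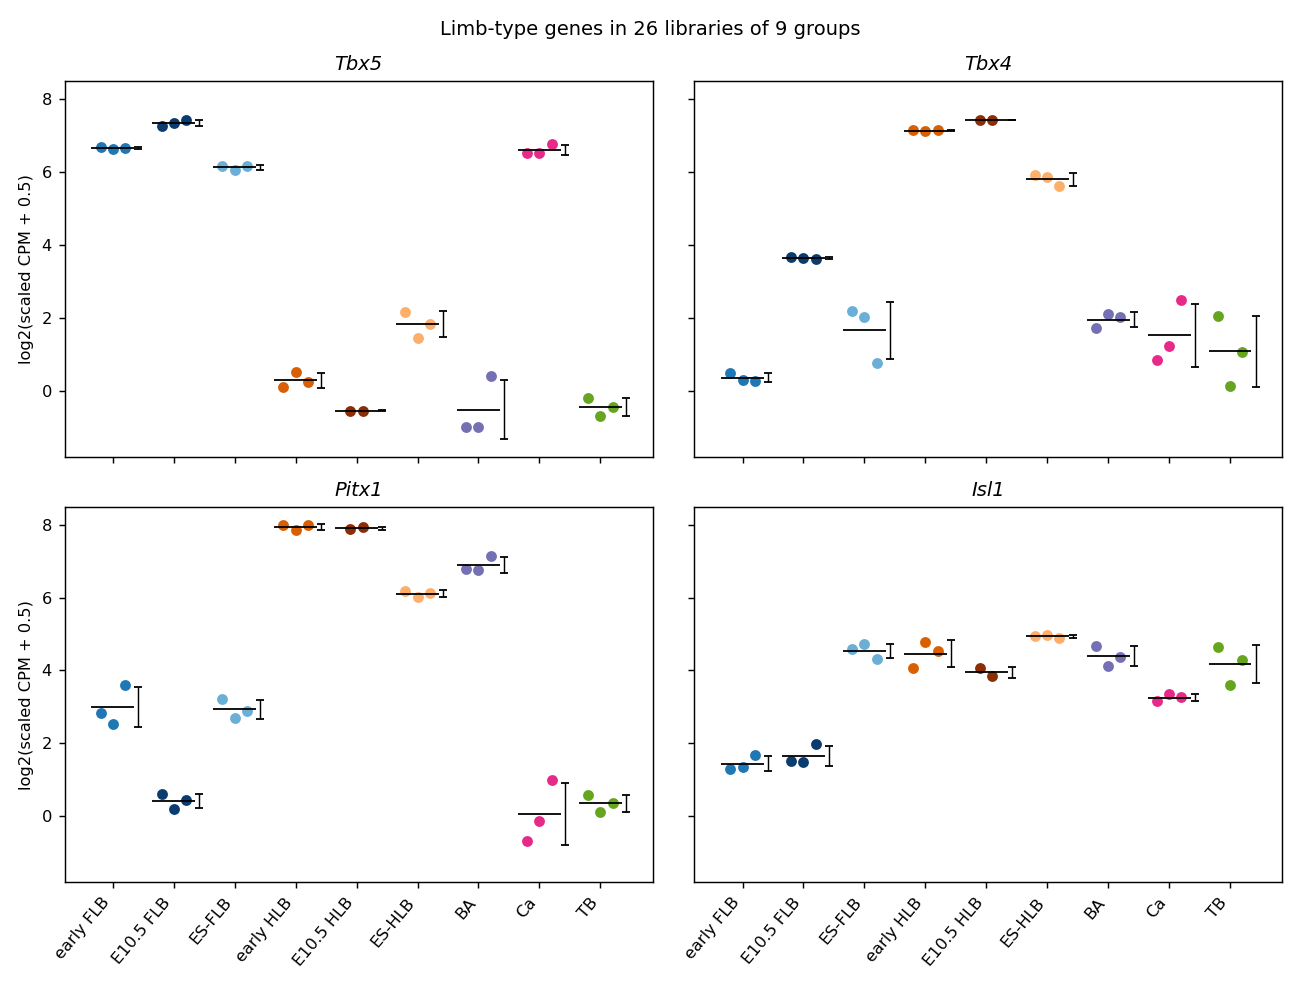
Level of Tbx5, Tbx4, Pitx1 and Isl1 in each library, as log2(scaled CPM + 0.5), by group. Points are libraries (3 a group, 2 for the E10.5 HLBs), lines are group means and bars show 1 SD. Tbx5 was high in the FLB groups and Ca, Tbx4 in the HLB groups, Pitx1 in the HLB groups and BA, and Isl1 was low in the embryonic FLBs and not in ES-FLB.

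The order of levels over the 9 groups was tested with contrasts between neighbours in that order, in 1 limma model of the 26 libraries, at an adjusted p of 0.05. Over the 23 pairs of groups so compared 59.3% of all gene tests passed, and between 19.7% and 78.4% in single pairs. For Tbx5, E10.5 FLBs were above early FLBs, and early FLBs, heart and ES-FLB came next with no neighbours that differed. ES-HLB came below these and above the early HLBs, and the early HLBs above BA, although the libraries of this last pair overlapped near the floor. For Tbx4, both embryonic HLB stages led and did not differ from each other, followed by ES-HLB and then E10.5 FLBs, each below the group before it. BA, ES-FLB, heart, tail bud and early FLBs followed E10.5 FLBs, and no neighbours among these 5 groups differed. Groups farther apart did, as early FLBs lay below BA, ES-FLB and heart (adjusted p = 0.00338, 0.01 and 0.0201). For Pitx1, both embryonic HLB stages led without a difference between them, then BA, ES-HLB, and, with no difference between them, early FLBs and ES-FLB. E10.5 FLBs, tail bud and heart were lowest, with no neighbours that differed. For Isl1, neighbours did not differ from ES-HLB down through ES-FLB, early HLBs, BA and tail bud to E10.5 HLBs, and heart lay below these and above the FLBs of both stages. Within that chain ES-HLB lay above early HLBs, BA, tail bud and E10.5 HLBs (adjusted p = 0.0418, 0.0238, 0.00215 and 0.000567), and ES-FLB above E10.5 HLBs (adjusted p = 0.0256). Among neighbours that did not differ, libraries did not overlap for both HLB stages in Tbx4, heart and ES-FLB in Tbx5, and ES-HLB and ES-FLB in Isl1. In limma on the libraries of both HLB stages alone, Tbx4 had an adjusted p of 0.00261. A missed threshold does not show that 2 groups were alike.

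Levels of different genes can be set side by side per kb of exon. In the early HLBs Pitx1 had 100.1 CPM per kb, Tbx4 41.0, Isl1 8.73 and Tbx5 0.183. In ES-HLB the order was the same. Pitx1 at 28.0 CPM per kb and Tbx4 at 16.2 were lower there than in the early HLBs, and Isl1 at 11.9 and Tbx5 at 0.784 were higher. In ES-FLB the order was Tbx5 at 17.6, Isl1 at 9.10, Pitx1 at 2.96 and Tbx4 at 0.864 CPM per kb. In the early FLBs Tbx5 had 25.4 CPM per kb and Pitx1 3.22, while Isl1 had 0.886 and Tbx4 0.229.

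Tbx4 and Tbx5 together summed to 25.6 ± 0.655 CPM per kb (SD, n = 3) in the early FLBs and to 41.2 ± 0.288 in the early HLBs, against 18.4 ± 0.658 in ES-FLB and 17.0 ± 1.96 in ES-HLB (n = 3 each). The share of Tbx4 in this sum was 0.890% ± 0.105 in the early FLBs and 99.6% ± 0.117 in the early HLBs. In culture the shares were 4.69% ± 2.42 in ES-FLB and 95.4% ± 1.19 in ES-HLB, so both ES-derived groups were less extreme than the early buds, and no library overlapped. At E10.5 the share was 7.90% ± 0.545 in FLBs and 99.9% ± 0.00253 in the 2 HLBs, and in the heart it was 3.01% ± 1.91. BA and tail bud had 94.4% ± 9.68 and 88.7% ± 3.27 of Tbx4, but of sums of only 1.06 and 0.626 CPM per kb.

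**Figure D2:**
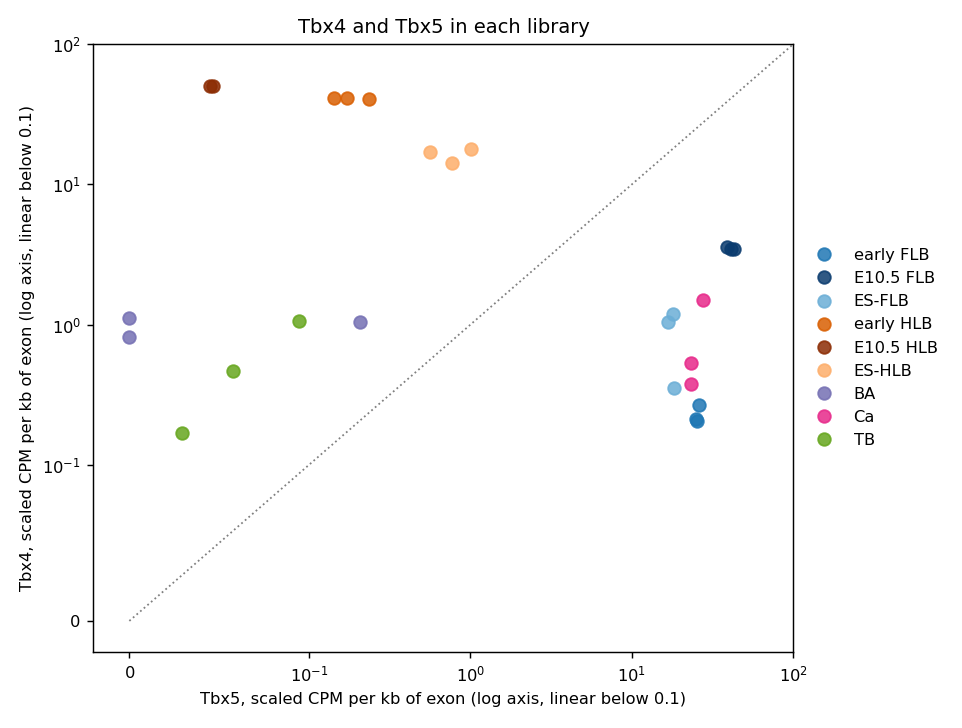
Tbx4 (vertical axis) against Tbx5 (horizontal axis) in each of the 26 libraries, in scaled CPM per kb of exon on log axes that are linear below 0.1; the dotted line marks equal levels. FLB groups and Ca lie at the lower right and HLB groups at the upper left, ES-HLB is shifted to the right of the embryonic HLBs, and BA and TB are low in both genes.

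The difference between limb types was tested within each setting with limma on log2(CPM + 0.5), at a Benjamini-Hochberg adjusted p of 0.05 over all genes tested. Fold changes on this scale understate those of genes near the floor. In the early buds, where 20.1% of 12574 genes passed, all 4 genes did. Tbx5 was lower in HLBs by a log2 difference of -6.38 (SE 0.12, adjusted p = 3.2e-11), and in reads per total reads it was 134 times as high in the early FLBs as in the early HLBs (95% interval 98.5 to 188, counting error only). Tbx4 was higher in HLBs by 6.78 (SE 0.10, adjusted p = 3.8e-12). Pitx1 was higher by 4.94 (SE 0.30, adjusted p = 0.000781) and Isl1 by 3.02 (SE 0.18, adjusted p = 3.66e-06). In these buds Tbx5 and Tbx4 reached 1 CPM, the level for testing, only in the limb type where they were high. Their passing is therefore no support beyond that level.

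At E10.5, where 26.1% of 12574 genes passed, the 4 genes again passed in the same directions. The log2 difference was -7.89 (SE 0.13) for Tbx5, 3.78 (SE 0.10) for Tbx4, 7.48 (SE 0.17) for Pitx1 and 2.28 (SE 0.23) for Isl1. limma's adjusted p were between 1.13e-47 for Tbx5 and 5.1e-12 for Isl1. With 5 libraries such values rest on the spread pooled over genes, and over the other settings tried the highest limma adjusted p was 0.0099, for Isl1. The Tbx5 level of the E10.5 HLBs rests on 2 reads in all, which gave a ratio of E10.5 FLBs to HLBs of 950 with a 95% counting interval of 263 to 7851. Tbx5 was admitted to the limma test at E10.5 through the FLBs alone, and Pitx1 through the HLBs and 1 FLB library at 1.02 CPM. Their passing is no support beyond those levels.

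In culture, where 25.1% of 13102 genes passed, Tbx5 was lower in ES-HLB than in ES-FLB by -4.31 (SE 0.14, adjusted p = 3.42e-19). Tbx4 was higher by 4.13 (SE 0.45, adjusted p = 0.00392) and Pitx1 by 3.17 (SE 0.11, adjusted p = 1.56e-19). Isl1 was higher in ES-HLB by 0.39 (SE 0.10, adjusted p = 0.00218), with no overlap of libraries, but did not pass with all 26 libraries in 1 limma model (adjusted p = 0.204). Over the 15 other settings the Isl1 adjusted p ranged from 6.49e-05 to 0.204.

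**Figure D3:**
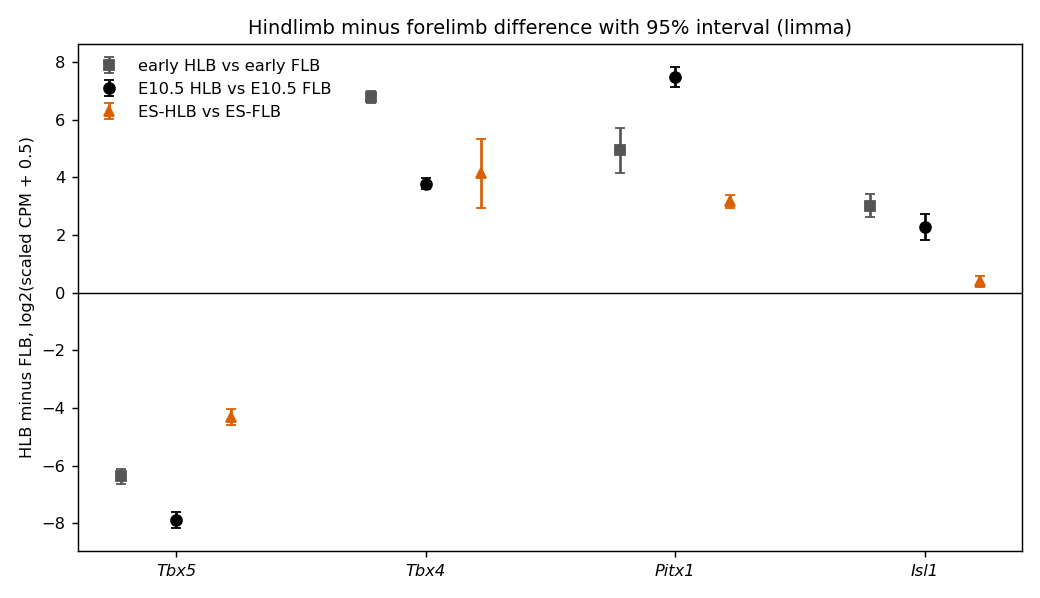
Hindlimb minus forelimb difference of each gene, on the log2(scaled CPM + 0.5) scale, in early buds, in E10.5 buds and in ES-derived buds. Points are limma estimates and bars their 95% intervals. The difference of Isl1 was 3.02 in early buds and 0.39 in culture, and that of Tbx5 was -6.38 and -4.31.

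Whether culture and early embryo differed in this contrast was tested with an interaction term over 12 libraries, which 22.6% of 13627 genes passed at 0.05. All 4 genes passed, each with a smaller difference between limb types in culture. The difference in culture minus that in the embryo was 2.06 for Tbx5 (SE 0.20, adjusted p = 4.37e-07), -2.64 for Tbx4 (SE 0.44, adjusted p = 0.00221), -1.77 for Pitx1 (SE 0.35, adjusted p = 0.00615) and -2.63 for Isl1 (SE 0.22, adjusted p = 1.15e-07). The comparisons below show which limb type each of these values came from. They share the early bud libraries with the contrast above.

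ES-FLB against the early FLBs was tested at an adjusted p of 0.001, which 66.2% of 13140 genes passed, so that a pass by itself says little of the 4 genes. Isl1 was higher in ES-FLB by a log2 difference of 3.10 (SE 0.15, adjusted p = 7.06e-12), the largest change among the 4. Tbx5 was lower by -0.53 (SE 0.05, adjusted p = 1.23e-07), a call that was lost in deposited units (-0.22, adjusted p = 0.00155) and with all 26 libraries in 1 model (adjusted p = 0.0519). Tbx4 was 1.31 higher (SE 0.33, adjusted p = 0.00305) and missed the threshold, with ES-FLB replicate 3 well below the other 2. With the replicate number as a block it passed (adjusted p = 0.000349). Tbx4 reached 1 CPM, the level for testing, only in ES-FLB, so that pass is no support beyond that level. Pitx1 did not pass (-0.06, 95% interval -0.69 to 0.57, adjusted p = 0.85).

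Between ES-HLB and the early HLBs, 60.6% of 13180 genes passed at 0.001. Pitx1 was lower in ES-HLB by -1.83 (SE 0.06, adjusted p = 4.06e-12) and Tbx4 by -1.34 (SE 0.07, adjusted p = 8.43e-10), the second call being lost with all 26 libraries in 1 model (adjusted p = 0.00863). Tbx5 was higher in ES-HLB by 1.54 (SE 0.23, adjusted p = 2.01e-05). Tbx5 reached 1 CPM, the level for testing, only in ES-HLB, so its passing is no support beyond that level. Isl1 differed by 0.47 (SE 0.16, adjusted p = 0.0186) and missed the threshold, which it passed in deposited units (0.72, adjusted p = 0.000733) and without early HLB replicate 2 (0.64, adjusted p = 0.000157).

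Markers of other cell types differed between culture and embryo as well. The 13 neuron markers summed to between 42.5 and 46.1 CPM in ES-FLB, and between 37.5 and 54.1 CPM in ES-HLB, against 14.0 to 17.4 CPM in early limb buds. Mnx1, a motor neuron factor, and Chat, the enzyme of acetylcholine synthesis, were at 0 in every ES-derived library. Chat was also at 0 in every embryonic limb bud library used, and Mnx1 in every early HLB library. Stmn2, a gene of growing neurites, had 16.5 CPM in ES-FLB against 0.938 CPM in early FLBs. Of the 4 neuron markers tested, 3 were higher in ES-FLB than in early FLBs at 0.001, where 66.2% of all genes were called, so this count says little of neurons. In ES-HLB only Stmn2 was higher, at 28.5 CPM against 1.70 CPM in early HLBs, where 60.6% of all genes were called. The median log2 difference of the 4 there was -0.04. The part of neurons in the Isl1 level of ES-FLB was not tested. In BA the neuron markers ranged from 39.0 to 203 CPM, highest in replicate 1, which also had the highest Isl1 level of that group. The 5 endothelial markers summed to between 22.6 and 38.9 CPM in ES-derived groups and to 303 or more in early limb buds, and the 8 surface ectoderm markers to between 93.9 and 194 CPM against 389 to 501.

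From the early to the E10.5 stage the genes moved differently. By the figure legend of the study this step was longer in FLBs than in HLBs, so the changes below do not cover the same interval. In FLBs, where 43.8% of 12796 genes passed at 0.001, Tbx5 was 0.69 higher at E10.5 (SE 0.05, adjusted p = 2.31e-09) and Tbx4 3.28 higher (SE 0.18, adjusted p = 2.88e-11), while Pitx1 was lower by -2.58 (SE 0.25, adjusted p = 1.11e-07). The Tbx5 call was lost with all 26 libraries in 1 model (adjusted p = 0.0176), and those of Tbx4 and Pitx1 held in each other setting in which they were tested. Tbx4 reached 1 CPM, the level for testing, only in the E10.5 FLBs, and was not tested when 1 of these libraries was left out. Pitx1 reached it in the early FLBs and in 1 E10.5 library at 1.02 CPM. Passing by Tbx4 and Pitx1 is therefore no support beyond those levels. Isl1 did not pass (0.22, adjusted p = 0.369). At 11.9 CPM, Tbx4 of the E10.5 FLBs remained far below the 170.1 CPM of the E10.5 HLBs.

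In HLBs 5.02% of 12445 genes passed at 0.001, and none of the 3 genes tested did. Tbx4 differed by 0.29 (SE 0.05, adjusted p = 0.00261), Pitx1 by -0.04 (95% interval -0.17 to 0.09, adjusted p = 0.636) and Isl1 by -0.51 (SE 0.19, adjusted p = 0.0789). In deposited units Tbx4 passed (0.39, adjusted p = 0.000598). Tbx5 was below the level required for testing, and the ratio of reads in early against E10.5 HLBs was 3.72 with a 95% counting interval of 0.964 to 31.7. In the limma model of all 26 libraries Tbx5 was 0.83 higher in early than in E10.5 HLBs (95% interval 0.27 to 1.40, adjusted p = 0.022). That value passed 0.05 and not 0.001. With the E10.5 HLB level under the floor, a change is not settled at this depth.

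The change of the limb-type difference with stage was tested over 11 libraries, and 24% of 13022 genes passed at 0.05. The longer step of the FLBs is part of this change and cannot be told apart from limb type. The difference between limb types was 1.52 log2 units further from 0 for Tbx5 at E10.5 (interaction -1.52, SE 0.17, adjusted p = 6.36e-06) and 2.54 further for Pitx1 (SE 0.36, adjusted p = 0.00141). The Tbx5 value includes the level of the E10.5 HLBs, 2 reads in all and under the floor, so its size is not fixed at this depth. Over the other settings it ranged from -1.84 to -1.22. For Tbx4 it was closer to 0 (interaction -3.0, SE 0.13, adjusted p = 1.38e-11). Isl1 missed the threshold (-0.74, SE 0.28, adjusted p = 0.0647). Isl1 passed in deposited units, without early FLB replicate 3, without early HLB replicate 1 and with the left-out library kept, at values between -0.94 and -0.83 and adjusted p between 0.0178 and 0.0421.

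Genes of limb position and outgrowth were read from lists chosen with earlier results of these data known. The 6 Hox genes expressed at forelimb level (Hoxa4, Hoxa5, Hoxb4, Hoxb5, Hoxc4 and Hoxc5) encode factors of axial position that act in the forelimb field, where Hox factors regulate Tbx5. All 6 were lower in HLBs than in FLBs in the early buds, at E10.5 and in culture, with a median log2 difference of -2.43, -1.59 and -2.50 beside medians over all genes of -0.01, 0.03 and 0.00. Of all genes tested, 11.1%, 10.9% and 12.3% were lower in the HLB group and 9.03%, 15.2% and 12.8% higher. Among called genes 44.9%, 58.3% and 50.9% were thus higher, and in deposited units 61.8%, 31.1% and 50.1%. Hoxc5 fell from 84.5 CPM in early FLBs to 6.25 CPM in early HLBs, and from 63.1 CPM in ES-FLB to 7.96 CPM in ES-HLB.

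Among the 4 Hox genes of hindlimb level, 3 of 4 were higher in the early HLBs, 2 of 3 tested at E10.5, and in culture 3 were higher and Hoxc8 was lower. The shares of all genes that were higher were 9.03%, 15.2% and 12.8%. Hoxc10 was the most unequal between embryo and culture. Its mean was 0.123 CPM in early FLBs, below the floor, against 108 CPM in early HLBs. Hoxc10 was admitted to the early test through the HLBs alone, so its passing there is no support beyond that level. In culture it was found in both limb types, with ES-FLB at 5.36 and ES-HLB at 24.8 CPM. The log2 differences were 7.44 (SE 0.11) in early buds and 2.11 (SE 0.12) in culture. All 4 genes of this list passed the interaction between culture and embryo with a lower value in culture, beside 9.92% of all genes. For Hoxc9, Hoxc10 and Hoxc11 the difference was smaller in culture, as it was for Tbx4, Pitx1 and Isl1, while that of Hoxc8 lay farther from 0 (-0.51 in early buds, where it did not pass, and -1.20 in culture). In the tail bud, where Tbx4 and Pitx1 were low, Hoxc10 had 135 CPM.

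The 10 outgrowth genes include Fgf10, the FGF-responsive genes Etv4, Etv5, Dusp6 and Spry4, and the transcription factor genes Sall1, Sall4, Hand2, Gli3 and Prrx1. In culture 9 were higher in ES-HLB and Fgf10 was lower (-0.67, SE 0.10), with 17.1 CPM against 27.6 CPM in ES-FLB. In the early buds 3 were higher in HLBs (Etv4, Dusp6 and Hand2) and 2 lower (Fgf10 and Sall4), and at E10.5 6 were higher and none lower. Beside these, 12.8% of all genes were higher and 12.3% lower in culture, 9.03% and 11.1% in the early buds, and 15.2% and 10.9% at E10.5. The main direction of all calls at E10.5 turned in deposited units, as given above. In deposited units the early Sall4 call and the E10.5 Fgf10 call were lost and E10.5 Hand2 passed as lower. Against the early FLBs, ES-FLB was lower in 7 of 10 of these genes, beside 36.9% of all genes, and higher in Hand2, the gene used for sorting. Sall4 had 6.18 CPM in ES-FLB against 87.2 CPM in early FLBs, a log2 difference of -3.72 (SE 0.10).

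Among family members of the 4 genes, Tbx3 was lower in HLBs in all 3 settings. Beside the calls of this list, 11.1%, 10.9% and 12.3% of all genes were lower in the HLB group in early buds, at E10.5 and in culture. The shares higher were 9.03%, 15.2% and 12.8%. Tbx2 was not called in the early buds (0.01) and was lower in HLBs at E10.5 (-0.81) and in culture (-0.48). Isl2 was higher in the early HLBs (0.90) and lower in ES-HLB than in ES-FLB (-1.18), with levels of 0.677 to 3.25 CPM in the groups concerned. Pitx3 was at or below 0.119 CPM in early and ES-derived buds and was tested only at E10.5, where it was lower in HLBs, with 1.63 CPM in FLBs and 0 in both HLB libraries. Pitx3 was admitted to that test through the FLBs alone, so its passing is no support beyond that level. Tbx2 and Tbx3 are also the nearest measured neighbours of Tbx4 and Tbx5 on the chromosome, at 44419 and 111790 bases. Their levels were highest in ES-FLB, at 408 CPM for Tbx2 and 151 CPM for Tbx3, and over the 9 group means r was 0.06 for Tbx2 with Tbx4 and 0.36 for Tbx3 with Tbx5. These r are descriptions over groups that share the scaling. Nearest to Pitx1 lies Catsper3, at 996 bases, with a highest group mean of 0.088 CPM (ES-HLB), below the floor. Farther away lie Pcbd2, at 48214 bases (r = -0.05), and H2afy, at 237432 bases (r = 0.37). The measured gene nearest to Isl1 is Parp8, at 541154 bases (r = 0.01).

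**Figure D4:**
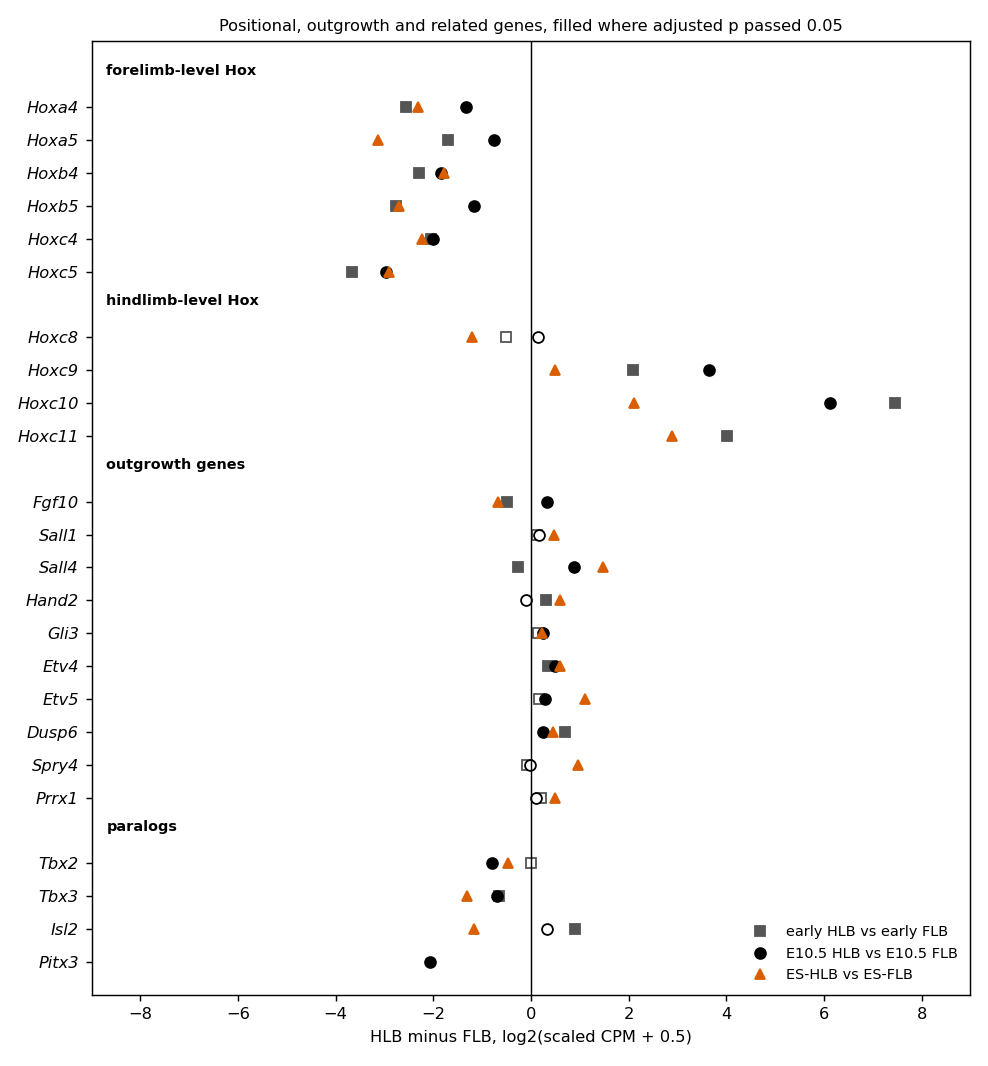
Hindlimb minus forelimb difference, log2(scaled CPM + 0.5), of the Hox, outgrowth and family member genes in early, E10.5 and ES-derived buds. Filled symbols passed an adjusted p of 0.05 in limma. All 6 forelimb-level Hox genes lie left of 0 in each setting, and Hoxc10 is at 7.44 in early buds and 2.11 in culture.

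Cofactors of these proteins are a list of 9 genes that includes Ldb1, an adaptor that binds LIM-homeodomain factors such as Isl1. In the early HLBs 3 were higher and 1 lower, beside 20.1% of all genes called. At E10.5 1 was higher and 1 lower, beside 26.1%, and in ES-HLB 4 were lower and none higher, beside 25.1%. In deposited units 4 were higher and 1 lower in the early HLBs, and none higher and 3 lower at E10.5. Ldb1 itself ranged from 151 CPM in the heart to 259 CPM in BA.

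The 6 cardiac partners and targets of Tbx5 were high in the heart, and few reached the level for testing in limb buds. Nkx2-5 and Nppa had 149 and 1447 CPM in the heart and at most 2.54 CPM in every other group, although Tbx5 levels of the early FLBs and the heart overlapped. In early buds 3 were tested, of which Gata4 was lower in HLBs and Gja5, a gap junction gene, was higher (2.54, SE 0.22). At E10.5 2 were tested and only Gata4 passed, lower in HLBs (-2.07, SE 0.38). In culture 2 were tested, and Gata4 was lower in ES-HLB and Tbx20, a T-box gene of the heart, higher (0.89, SE 0.14). Beside these, 20.1% of all genes were called in early buds, 26.1% at E10.5 and 25.1% in culture. Gata4, a cardiac and limb factor, had 328 CPM in the heart, 24.1 CPM in early FLBs and 0.361 CPM in early HLBs. Gata4 was admitted to the early test through the FLBs, so its passing there is no support beyond that level. In culture ES-FLB stood at 31.6 CPM, above the 10.9 CPM of ES-HLB. Its log2 difference between limb types was -4.77 (SE 0.32) in early buds and -1.50 (SE 0.11) in culture.

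Among 10146 genes with a group mean of 16 CPM or more in some group, the pattern over 9 group means most like that of Tbx5 was found for Nek6 (r = 0.89), Alcam (0.86), Jak2 (0.82), Plxna4 (0.80) and Tbkbp1 (0.80). For Tbx4 it was AA960436 (0.84), Emb (0.83), 5730419I09Rik (0.82), Rufy1 (0.82) and Dhcr7 (0.81), and for Pitx1 Mtmr14 (0.82), Hivep1 (0.80), AA960436 (0.78), Fam53b (0.77) and Arrb2 (0.77). For Isl1 it was Tspan7 (0.85), E2f1 (0.82), Limch1 (0.81), Mvk (0.77) and Lrrn3 (0.76). Most of these genes varied far less than the gene they resembled. Nek6 ranged from 57.9 to 70.2 CPM over the groups. Alcam and Plxna4, surface proteins of adhesion and axon guidance, had the widest range in the Tbx5 set, from 11.9 to 203 and from 4.06 to 113 CPM, and were highest in the heart. Among the 4 genes, r was 0.71 for Tbx4 with Pitx1, 0.51 for Pitx1 with Isl1 and 0.38 for Tbx4 with Isl1, and it was -0.47, -0.66 and -0.68 for Tbx5 with Tbx4, Pitx1 and Isl1. These values rest on 9 means that share libraries and scaling.

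RefSeq promoter sequences were at hand for Tbx4 and Isl1, both of them genes that were higher in the embryonic HLBs. They are given on the strand of the gene, 250 bases before to 50 bases after an annotated start on GRCm38.p6, with matches to 5 short motifs in capitals, searched on both strands. GGTGTG is the core bound by T-box factors. TAATCC is the site of Pitx and related homeodomain factors. TATAAA is the TATA box, and CAGCTG is an E-box bound by basic helix-loop-helix factors. CCAAT names its own box. The Tbx4 window, chr11:85896515-85896814, lies inside the RefSeq span of the gene, and the Isl1 window, chr13:116309639-116309938, holds the start of the gene.

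Tbx4: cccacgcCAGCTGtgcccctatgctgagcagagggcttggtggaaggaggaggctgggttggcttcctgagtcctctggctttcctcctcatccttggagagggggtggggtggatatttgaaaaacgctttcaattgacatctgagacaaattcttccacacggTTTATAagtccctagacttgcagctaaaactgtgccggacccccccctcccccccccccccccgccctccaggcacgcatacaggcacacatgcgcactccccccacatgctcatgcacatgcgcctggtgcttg
Isl1: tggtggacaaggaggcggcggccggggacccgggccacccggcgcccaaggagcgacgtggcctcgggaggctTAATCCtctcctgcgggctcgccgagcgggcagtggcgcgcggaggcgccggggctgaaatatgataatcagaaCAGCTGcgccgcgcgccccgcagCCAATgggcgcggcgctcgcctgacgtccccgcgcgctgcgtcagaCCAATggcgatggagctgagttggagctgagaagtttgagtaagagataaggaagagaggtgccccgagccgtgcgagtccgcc

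Both windows held CAGCTG, which 16.3% of 32851 promoter windows held. In the Tbx4 window TATAAA was found on the opposite strand at position 166, and 13.6% of all windows held it. The Isl1 window held TAATCC at position 74 (7.06% of all windows) and CCAAT at positions 171 and 217 (37.4%). GGTGTG, held by 19.0% of all windows, was not among the letters of either. No motif matches overlapped. The Isl1 window had a GC content of 69.0% and 37 CpG dinucleotides and the Tbx4 window 59.0% and 8, beside medians of 52.7% and 7 over all windows. These matches describe the sequence and say nothing of binding.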

How the data were processed

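The deposited table has 1 row per gene and 1 column per library and is named as counts, but each column sums to the same total, 1000000, so the values are CPM. Per the labels and methods, the authors made stranded mRNA libraries, mapped reads to mm10 with HISAT2 2.0.4, counted them with Cuffdiff (Cufflinks 2.1.1 is also named) and used edgeR 3.16.2 to make and compare CPM. Values were taken as CPM deposited by the authors, and every column belonged to 1 library.

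Scaling of the 26 libraries used trimmed means of their log ratios, without weights, trimming 30% of log ratios and 5% of intensities. Deposited units shift group medians by -0.19 (early FLBs) to 0.12 (ES-FLB) log2 units relative to this. A gene was tested where 3 or more of the compared libraries reached 1 CPM, so at E10.5 a gene at that level in only the 2 HLB libraries, such as Hoxc11, was not tested. Tbx4 reached that level only in the higher group in E10.5 against early FLBs and in ES-FLB against early FLBs. The same held for Tbx5 in ES-HLB against early HLBs, and in the change with stage Tbx5 reached it only in FLBs. The test was limma 3.58.1 (R 4.3.3) on log2(CPM + 0.5), using its variance trend and robust estimation and Benjamini-Hochberg adjustment over all genes tested. Thresholds were an adjusted p of 0.001 between stages and between culture and embryo within a limb type, and of 0.05 elsewhere. Tests were checked on simulated data. Depth came from the spacing of low values; intervals and floors cover counting error only, as reads are not independent molecules.

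The 4 genes and all lists were chosen with earlier results of these data known. Genes named are the 4, all list genes, for each of the 4 the 5 genes most alike in pattern, and the 2 nearest genes of the table on each side. Of the family list 1 gene, and a coding stretch, are not reported here. Replicate 2 of the E10.5 HLBs was left out. Alternatives were other scalings, pseudocounts, filters and models, the replicate block and each library left out; the scalings for the gene lists were added after seeing the data.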

Additional observations from a re-analysis of the deposited data

Results flagged for a closer look

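The limb-type difference (HLB minus FLB, log2) differed between culture and early embryo for each of the 4 genes by limma's interaction test. The difference in culture minus that in the embryo was 2.06 for Tbx5, -2.64 for Tbx4, -1.77 for Pitx1 and -2.63 for Isl1. Leaving out 1 library at a time gave 1.89 to 2.25 for Tbx5, -3.09 to -2.38 for Tbx4, -2.08 to -1.54 for Pitx1 and -2.83 to -2.47 for Isl1.

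The same difference passed limma's interaction test with stage for 3 genes, with -1.52 for Tbx5, -3.0 for Tbx4 and 2.54 for Pitx1 (E10.5 minus early). By the figure legend of the study, the step in stage was longer in FLBs than in HLBs. The Tbx5 value includes an E10.5 HLB level of 2 reads in all, below the floor, and its size is not fixed at this depth. Leaving out 1 library at a time gave -1.61 to -1.40, -3.07 to -2.95 and 2.23 to 2.76.

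The library left out of all comparisons, replicate 2 of the E10.5 HLBs, held 158 CPM of Tbx4, 237 CPM of Pitx1 and 10.1 CPM of Isl1, all above the highest E10.5 FLB library (12.2, 1.02 and 3.44 CPM). It lies below both other E10.5 HLB libraries for Tbx4 and Isl1 and between them for Pitx1, and Tbx5 lies on a chromosome without values there.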

How the results depend on the processing

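Of 550 values of the 4 genes under other settings, 531 kept direction and side of the threshold, 8 newly passed, 5 no longer passed and 6 changed sign, all of Pitx1 in comparisons it did not pass. In deposited units and with median-of-ratios scaling, ES-FLB against early FLB gave 0.23 and 0.041 in place of -0.06, and E10.5 against early HLB 0.060 and 0.00032 in place of -0.04. Leaving out 1 library at a time gave -0.29 to 0.25 in the former (0.25 without early FLB replicate 3, 0.06 without ES-FLB replicate 2). With all 26 libraries in 1 model, ES-HLB against ES-FLB lost Isl1 (0.39), E10.5 against early FLB lost Tbx5 (0.69), ES-FLB against early FLB lost Tbx5 (-0.53) and ES-HLB against early HLB lost Tbx4 (-1.34). In deposited units ES-FLB against early FLB lost Tbx5 (-0.22), and Tbx4 of E10.5 against early HLB (0.39), Isl1 of ES-HLB against early HLB (0.72) and the change of Isl1 with stage (-0.83) passed. The last also passed with the left-out library kept (-0.93). The causes were not tested.

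Between libraries of the same replicate number in the compared groups, r over genes was between -0.108 and 0.111, after group means were taken off. Libraries of different numbers were not compared in this way, so whether the numbers pair the libraries was not tested. With the replicate block, Tbx4 of ES-FLB against early FLB passed (1.31) and 1379 genes were called in E10.5 against early HLB, and no other call of the 4 genes changed.

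Leaving out 1 library at a time gave -0.94 to -0.57 for the change of Isl1 with stage and 0.27 to 0.64 for Isl1 of ES-HLB against early HLB. It gave 1384 to 2326 genes called between early buds (2526 with all; lowest without early FLB replicate 1), 2168 to 2879 at E10.5 (3284 with all; lowest without HLB replicate 1) and 7 to 1397 for E10.5 against early HLB (625 with all; 7 without E10.5 HLB replicate 3, 1397 without early HLB replicate 1).

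E10.5 against early HLB called 153 genes without a filter, 9 without trend and robust estimation, 1715 with all libraries in 1 model and 1032 with the left-out library. Without trend and robust estimation, E10.5 buds had 853 genes called and E10.5 against early FLBs 3001, of 5608. Called genes that were higher made up 44.9% between early buds (61.8% in deposited units), 58.3% at E10.5 (31.1%), 56.1% for culture minus embryo (44.5%), 59.3% for the change with stage (29.0%), 36.1% for E10.5 against early FLB (67.0%), 30.9% for E10.5 against early HLB (49.9%), 44.3% for ES-FLB against early FLB (63.4%) and 43.9% for ES-HLB against early HLB (61.7%). Over single libraries, 11 of the 20 genes most alike in pattern were the same. The edgeR and DESeq2 tests on reads were not run, because whole reads could not be taken back from the CPM for every gene. Depth limits Tbx5 in the HLBs, BA and tail bud and Pitx1 in the E10.5 FLBs, heart and tail bud.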
